A study of Mus musculus with 18 samples.

Results

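The adult HSPC cluster was the group of bone marrow (BM) cells that the deposited cell table assigned to the code HSPC5 in the adult hematopoietic progenitor (HP) library. Its members were chosen by 3 entries of that table: a hematopoietic type, the adult HP library, and a cluster code beginning with HSPC. It held 629 of the 5985 cells of that library, a share of 10.5% (95% interval 9.74 to 11.3%), out of 56201 cells in the whole series. The other 17 clusters of the library held 5356 cells and served as the comparison.

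The series profiled mouse BM of the strain given as C57B6/J of adults, newborns (P0) and fetuses (E16.5 and E18.5) by CITE-Seq, in which each cell yields both its mRNA counts and counts of oligo-tagged antibodies bound to its surface. HPs were Lineage- Kit+ cells isolated by flow cytometry. The adult HPs came from 1 library of pooled mice, which were adults (the reporting summary gives a general range of 6 to 16 weeks for cell collection, not an age of this pool), E18.5 and P0 from 1 HP library each, and E16.5 from 2 HP libraries. Because the adult library had no replicate, no p-value is given, and every interval in parentheses is a 95% interval for counting error only (exact Poisson for expression, exact Clopper-Pearson for shares, exact conditional binomial for ratios).

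Hematopoietic stem and progenitor cells (HSPCs) maintain blood production. Long-term HSCs (LT-HSCs) self-renew and seldom divide, short-term HSCs (ST-HSCs) repopulate transiently, and multipotent progenitors (MPPs) lean toward the megakaryocyte and erythroid (MPP2), myeloid (MPP3) or lymphoid (MPP4) lineages. In adult mouse BM these populations are told apart by Sca-1, CD135 (the receptor FLT3), CD48 and CD150 on Lineage- Kit+ cells. Here the antibody counts entered neither the rule nor the clusters, which were built from mRNA, so they are a measure that the choice of cells did not use.

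The adult library held 59206442 UMIs, the mRNA molecules counted, of which 5449281 lay in HSPC cells. The median HSPC cell had 7636 UMIs and 2223 genes, and the median of the other cells was 6505.5 UMIs and 2012.5 genes. A barcode that another library of the series also held was carried by 10 of the 629 HSPC cells (1.59%). That share was 63.3% (682 of 1078 cells) in 4 other clusters whose median cell had fewer than 1000 UMIs, and 2.24% (96 of 4278) in the remaining clusters. These shallow clusters entered the comparison group, and without them the ratio of HSPC to other cells changed little for the label markers (12.2 for Hlf, beside 12.1 with them).

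The label markers were high in the cluster, which was itself built from mRNA, so their levels describe it and are no independent check of its name. Hlf encodes a transcription factor of stem cells, Mecom a zinc finger factor needed to keep HSCs, and Cd34 a surface sialomucin of progenitors. Expression is given as CPM, the UMIs of a gene per 1000000 UMIs summed over a group of cells. Hlf (chromosome 11, 90336535 to 90390917, mm10) reached 115 CPM (106 to 124) in HSPC cells and 9.49 CPM (8.68 to 10.3) in the others, a ratio of 12.1 (10.8 to 13.7). Mecom (chromosome 3, 29951296 to 30509759) was at 27.7 CPM (23.5 to 32.5) against 2.21 CPM, a ratio of 12.5 (9.78 to 16.1). Cd34 (chromosome 1, 194938821 to 194961292) was at 269 CPM (255 to 283) against 52.1 CPM, a ratio of 5.16 (4.84 to 5.50). All 3 were higher in the HSPC cluster than in any other cluster of at least 1000 UMIs per median cell. The next levels were 25.02 CPM of Hlf and 7.03 CPM of Mecom in Mono5, and 165 CPM of Cd34 in Mono4.

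**Figure D1:**
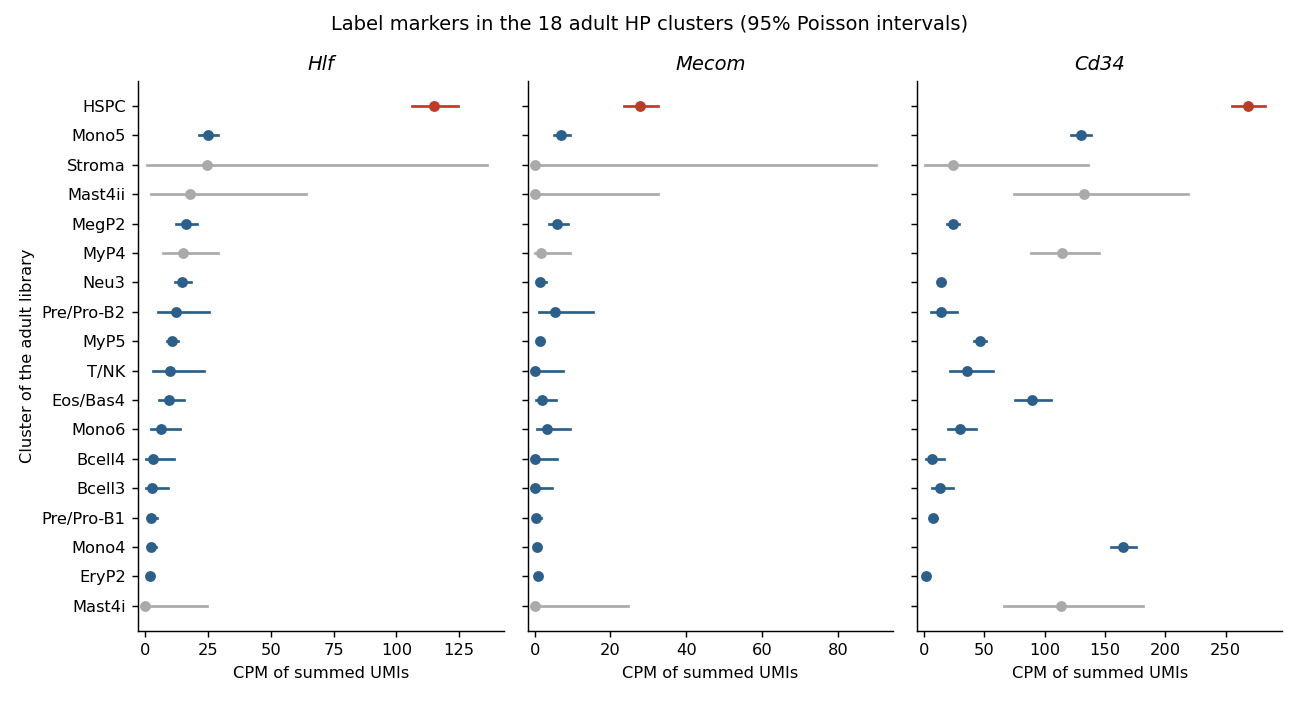
CPM of Hlf, Mecom and Cd34 (horizontal axes) in each of the 18 clusters of the adult HP library (vertical axis, ordered by Hlf with the HSPC cluster on top). Points are summed UMIs and lines exact 95% Poisson intervals; red is the HSPC cluster and grey the 4 clusters whose median cell had fewer than 1000 UMIs, whose intervals are wide. The HSPC cluster lies to the right of every other point in all 3 panels, at 115, 27.7 and 269 CPM.

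Among genes with at least 50 UMIs, 1005 of 11950 (8.41%) were at least 2-fold higher in HSPC than in the other adult cells and 1161 (9.72%) at least 2-fold lower. Mitochondrial and ribosomal protein genes and Gm42418 took 47.9% of UMIs in HSPC cells and 39.0% in the others, and when CPM was computed without them every log2 ratio rose by 0.23 and the counts became 1504 higher and 931 lower. Of 15 tested HSPC markers, 14 were at least 2-fold higher, and 6 of them stood among the 10 genes with the highest ratio at 100 CPM or more. These leading genes were Wfdc17 (184 CPM against 7.53), Flt3 (157 against 10.3), Hlf, the adhesion receptor gene Adgrl4 (189 against 24.3), Myl10 (154 against 22.6), Ctla2a (277 against 47.6), Dntt (336 against 59.6), Cd34, Satb1 (118 against 24.8) and Angpt1 (132 against 28.9). Flt3 and Dntt belong to the early lymphoid program. Dntt encodes the terminal transferase that adds bases at antigen receptor joints. Its ratio is to the pooled other cells. A UMI of it was found in 37.5% of HSPC cells, but in 82.8% and 82.9% of the B cell progenitor clusters Pre/Pro-B1 and Pre/Pro-B2.

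Of 33 tested stem cell transcription factors, 18 were at least 2-fold higher and 2 at least 2-fold lower, with a median log2 ratio of 1.14 beside 0.01 over all tested genes. Nkx2-3 had the highest ratio in it (10.8 CPM, ratio 16.2), followed by Mecom and Hlf, and then the homeobox genes Hoxa5 (ratio 5.85), Meis1 (5.35), Hoxa9 (4.52) and Hoxa7 (3.98). Gata2, Tal1, Runx1 and Fli1, which act across several blood lineages, had ratios of 0.98, 0.82, 1.55 and 1.18, the first of which lay above 1 under the other scaling. The 2 lower genes were Gfi1 (0.49) and Gfi1b (0.22).

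Of 30 tested surface and signalling genes, 14 were at least 2-fold higher and 2 at least 2-fold lower. The sparse endothelial and stem cell gene Emcn (7.16 CPM) had the highest ratio, 22.6, and Flt3 and Esam (4.77 CPM, ratio 9.16) were also high. Robo4 (4.40 CPM) and Procr (3.67 CPM) were too sparse to be among the tested genes. Ly6a, which encodes Sca-1, was at 27.7 CPM against 3.81. Slamf1, which encodes CD150, was at 1.84 CPM (10 UMIs) against 2.55 CPM, so its transcript did not mark the cluster. Kit, on which the cells were sorted, had a ratio of 1.96.

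Markers of most mature lineages were lower than in the pooled other cells, which include the clusters of those lineages themselves. All 9 neutrophil markers and all 11 erythroid markers were at least 2-fold lower, as were 9 of 10 B lymphoid, 6 of 8 T and NK, 6 of 7 mast, 7 of 8 eosinophil and basophil, and 6 of 7 stroma and endothelium markers. Monocyte, dendritic cell and megakaryocyte markers were mixed: 4 of 8, 4 of 9 and 2 of 8 were at least 2-fold lower, and none, 2 and 2 at least 2-fold higher. The 10 genes with the lowest ratios were the neutrophil genes Ngp, Fcnb, Chil3, Lcn2 and Ltf, the erythroid genes Hbb-bs, Hba-a1 and Car1, the basophil protease gene Prss34 (2.39 against 238 CPM) and the immunoglobulin gene Igkc (8.44 against 468 CPM). The summed level of the 9 neutrophil markers was 1613 CPM in HSPC cells and between 1089 and 355407 CPM in the other clusters. By summed level the HSPC cluster stood above 3 of the 17 other clusters for neutrophil and 8 for B lymphoid markers. It stood above 9 each for erythroid and for T and NK markers, 11 for stroma and endothelium, 12 for mast, and 13 for eosinophil and basophil markers. The stroma and endothelium sum was 62.9 CPM against 65.1 CPM in the pool. Myeloid progenitor genes were lower than in the pooled other cells: 9 of 16 myeloid progenitor genes were at least 2-fold lower and none higher, with Mpo, the myeloperoxidase gene, at 1005 CPM against 2487 CPM and Elane at 248 against 2263 CPM. The summed level of 8 myeloid progenitor markers, 3544 CPM in HSPC cells, was however above that of 11 of the 17 other clusters (713 CPM in Pre/Pro-B1) and below that of 6, up to 37309 CPM in MyP5. Lymphoid priming genes split, with 5 of 17 higher (Flt3, Dntt, Satb1, Notch1 and Ccr9) and 5 lower (Ighm, Ebf1, Cd79a, Igll1 and Vpreb1), counts that became 9 and 4 without the mitochondrial, ribosomal protein and Gm42418 UMIs. The higher genes act early in the lymphoid lineage, whereas Ebf1, Cd79a, Igll1 and Vpreb1 serve committed B cell progenitors.

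Genes of the G2M phase were lower in the HSPC cluster than in the pooled other cells, and those of S phase less so. All 20 G2M genes had a ratio below 1 and 5 were at least 2-fold lower (3 without the mitochondrial, ribosomal protein and Gm42418 UMIs), while 16 of 20 S phase genes had a ratio below 1 and 1 was at least 2-fold lower. With each cell thinned to 1000 UMIs (625 HSPC cells kept and 4 left out), the G2M list made up 0.108% (0.0997 to 0.116%) of UMIs against 0.253% in the other cells, and the S list 0.176% (0.166 to 0.187%) against 0.221%. In the phases deposited by the authors, 32.1% of HSPC cells were in G1, 52.8% in S and 15.1% in G2M, beside 19.04%, 41.0% and 39.9% of the others. A low G2M and a high G1 share were not particular to the cluster. The G2M list made up 0.0427% of thinned UMIs in Pre/Pro-B2 and 0.0735% in Bcell3, and the S list 0.0637% and 0.0613%. G1 calls covered 80.5% and 77.5% of the cells of these clusters. Of 9 G1 cyclins, kinases and Myc genes, 4 were at least 2-fold higher and 2 at least 2-fold lower. The cyclin D gene Ccnd2 was at 248 against 105 CPM (ratio 2.35), and the cyclin E gene Ccne1 at 5.14 against 35.6 CPM (ratio 0.14). Of 20 genes of quiescence and cell cycle inhibition, 5 were at least 2-fold higher (Nr4a1, Cdkn1c, Cdkn1a, Txnip and Zfp36) and 2 at least 2-fold lower.

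At full depth a UMI of Cd34 was found in 80.6% of HSPC cells, of Hlf in 40.1% and of Mecom in 18.8%. After thinning to 1000 UMIs, Hlf was detected in 12.5% (9.99 to 15.3%) of HSPC cells and 0.875% of other cells, Mecom in 3.52% and 0.276%, and Cd34 in 24.96% and 4.81%. In Pre/Pro-B1, a B cell progenitor cluster with a median of 7666 UMIs, no thinned cell of 424 held Hlf, which allows a UMI in up to 0.708% of thinned cells (3 counts of the total), and at full depth 5 of 441 cells (1.13%) did. At full depth none of the 3 was seen in 72 of 629 cells (11.4%) and all 3 in 69 cells (11.0%), and after thinning none in 397 of 625 cells (63.5%) and all 3 in 1 cell (0.160%). 

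The deposited hscScore, a score of resemblance to HSCs, averaged 0.107 (SD 0.102, n = 629 cells) in the HSPC cluster and 0.0977 (SD 0.109) in the other cells. Mean scores were higher than that of HSPCs in 8 of the 17 other clusters, among them the 4 shallow ones, Bcell3 (0.255) and Pre/Pro-B2 (0.263). The score moved with depth: among other cells its mean was 0.206 between 512 and 1024 UMIs and 0.0064 between 16384 and 32768 UMIs. Within UMI ranges of 1 doubling that held at least 20 cells of both groups, the HSPC mean was the higher in 3 of 4. The difference was -0.023 between 2048 and 4096 UMIs, 0.078 between 4096 and 8192, 0.027 between 8192 and 16384 and 0.0062 above that.

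On the cell surface, the antibodies separated HSPCs from the rest most by Sca-1 and CD135. Each antibody was placed on a centered log-ratio (CLR) scale over the cells of the library, and a cell above a CLR of 1 was called positive. Sca-1 was positive on 62.3% (58.4 to 66.1%) of the 629 HSPC cells and on 16.1% (15.1 to 17.1%) of other cells. CD135 was positive on 36.6% (32.8 to 40.5%) against 5.94% (5.32 to 6.60%). No other cluster had a higher share for either antibody. The nearest were Pre/Pro-B1 for Sca-1 (46.0%, 41.3 to 50.8%) and Mono5 for CD135 (25.4%, 20.9 to 30.2%), and neither interval reached that of the HSPC cluster.

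CD48 and CD150 did not single out the cluster. CD48 was positive on 54.4% (50.4 to 58.3%) of HSPC cells and 37.1% of others, with a higher share in 6 clusters, up to 85.2% in Mono6. Its distribution ran across the level without a gap, with 126 HSPC cells within a CLR of 0.1 of it, and on another scale (log2 of counts per 10000 antibody counts) the mean of CD48 was lower in HSPC than in other cells. CD150 was positive on 9.70% (7.499 to 12.3%) of HSPC cells and 14.9% of others, and on 89.0% of MegP2 cells. The median HSPC cell carried 140 counts of CD48, 11 of Sca-1 and 1 each of CD135 and CD150. The level lay at 133, 6, 3 and 5 counts, so the Sca-1, CD135 and CD150 calls rest on few counts.

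**Figure D2:**
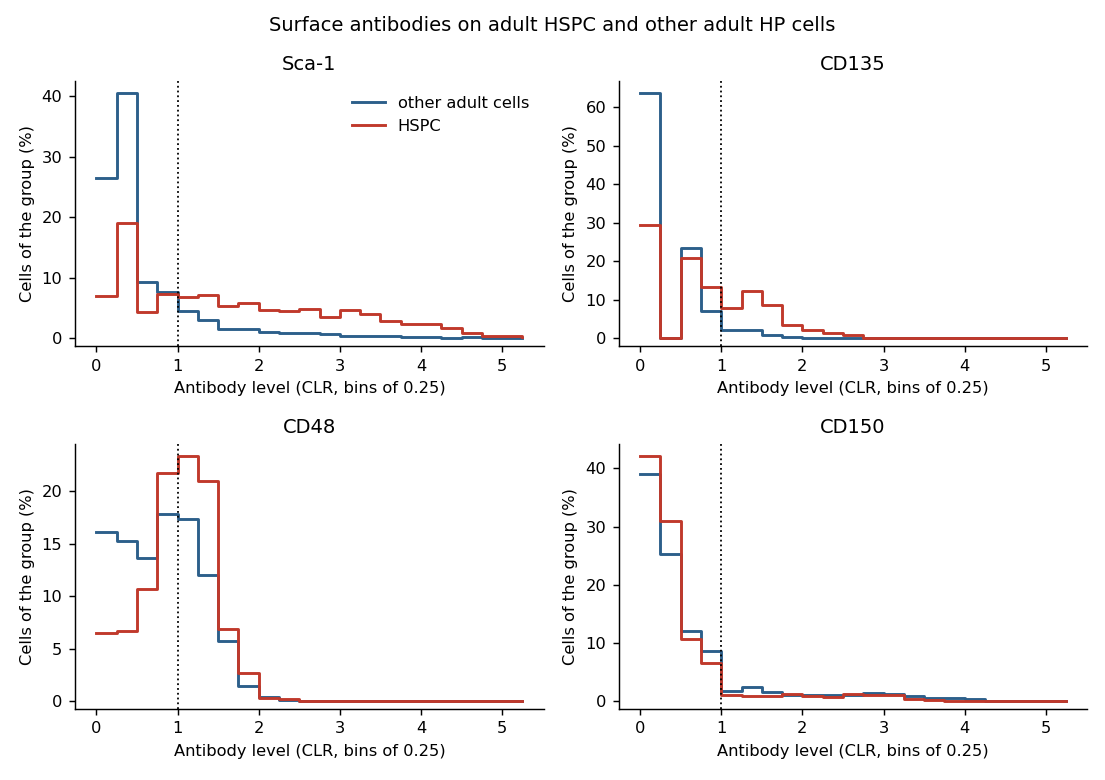
Percent of cells (vertical axes) by antibody level (CLR, horizontal axes, bins of 0.25) for Sca-1, CD135, CD48 and CD150 on the 629 HSPC cells (red) and the 5356 other adult HP cells (blue). The dotted line marks the CLR of 1 above which a cell was called positive. HSPC cells extend far to the right for Sca-1 (62.3% positive) and CD135 (36.6%), while the curves lie close together for CD150.

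The antibodies and their transcripts went together inside the cluster. Ly6a was at 47.0 CPM (39.6 to 55.3) in Sca-1+ and 2.93 CPM (1.18 to 6.05) in Sca-1- HSPC cells. Flt3 was at 253 CPM (232 to 276) in CD135+ and 95.4 CPM (85.2 to 107) in CD135- cells, and Cd48 at 113 against 71.9 CPM in CD48+ and CD48- cells. Slamf1 gave 7 UMIs in 61 CD150+ cells and 3 UMIs in 568 CD150- cells.

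Gates on these antibodies split the cluster into immunophenotypic (ph) classes. Of the 629 cells, 29 were phLT-HSCs (Sca-1+ CD135- CD48- CD150+; 4.61%, 3.11 to 6.55%), 127 phST-HSCs (Sca-1+ CD135- CD48- CD150-; 20.2%, 17.1 to 23.5%), 14 phMPP2s (2.23%), 66 phMPP3s (10.5%) and 150 phMPP4s (Sca-1+ CD135+ CD150-; 23.8%, 20.6 to 27.4%). This phMPP4 gate is wider than the MPP4 gate of the study's methods, which also requires CD48, and 88 of the 150 cells (14.0% of the cluster, 11.4 to 16.9%) were CD48+. These 88 cells carried 72.6 CPM (55.6 to 93.3) of Hlf and 1043 CPM (975 to 1114) of Dntt, and the 62 CD48- cells 215 CPM (175 to 262) and 691 CPM (618 to 771). A further 237 cells (37.7%) were Sca-1-, and 6 were Sca-1+ CD135+ CD150+. The shares moved with the level, since at a CLR of 1.5 phST-HSCs made up 31.6% and phMPP4s 10.0%, and at 0.75 the shares were 10.0% and 31.8%. A CLR across cells does not adjust for the antibody total of a cell, which differed between the classes. Its median was 151 counts in phLT-HSCs, 125 in phST-HSCs, 393 in phMPP2s, 217 in phMPP3s, 213 in phMPP4s and 172 in Sca-1- cells.

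The same gates also caught cells outside the cluster. The HSPC cluster held 57.3% of the 262 phMPP4 cells of the library, 39.0% of 326 phST-HSCs, 21.6% of 134 phLT-HSCs, and smaller shares of phMPP2s and phMPP3s. The hscScore comparison of the study holds fewer phLT-HSCs per stage than this gate caught. The study places most of its phLT-HSCs among HSPCs, with E16.5 as the exception. The shares here belong to the gate used here. Of the phLT-HSC gate, 52 cells lay in Bcell3 and 23 in MegP2. Those 105 outside cells carried 52.6 CPM (36.2 to 73.9) of Hlf, 319 CPM of the B cell gene Cd79a and 1023 CPM of the platelet factor gene Pf4, whereas the 29 phLT-HSCs inside carried 294 CPM (225 to 377) of Hlf, no UMI of Cd79a (3 counts would be 14.4 CPM) and 33.7 CPM of Pf4. In the phST-HSC gate Hlf was at 350 CPM (308 to 395) inside and 9.67 CPM (5.15 to 16.5) outside.

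Within the cluster, Hlf, Mecom and Meis1 were highest in the HSC classes and lowest in Sca-1- cells. Hlf was highest in phST-HSCs (350 CPM) and phLT-HSCs (294 CPM), whose intervals overlapped, and fell to 123 CPM (105 to 144) in phMPP4s, 122 CPM in phMPP3s, 82.2 CPM in phMPP2s and 23.1 CPM (17.4 to 30.01) in Sca-1- cells. Mecom was at 91.5 CPM (55.1 to 143) in phLT-HSCs, 69.3 CPM (51.5 to 91.4) in phST-HSCs, 35.3 CPM in phMPP4s and 7.55 CPM in Sca-1- cells. Meis1 went from 246 CPM in phLT-HSCs to 161 CPM in phST-HSCs and 38.1 CPM in Sca-1- cells. Other transcription factors of the list were arranged differently, with Sox4 at 197 CPM in phLT-HSCs and 403 CPM in phMPP4s and Gata2 highest in phMPP2s at 112 CPM. The phLT-HSC values rest on 29 cells and 61, 19 and 51 UMIs of Hlf, Mecom and Meis1.

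Cd34 did not follow this order. It was lowest in phLT-HSCs (159 CPM, 109 to 223), highest in phST-HSCs (368 CPM, 325 to 415) and between 200 and 274 CPM in the other classes, including 252 CPM in Sca-1- cells. Of the 3 label markers, it thus divided Sca-1+ from Sca-1- cells least, with a ratio of 1.12 (1.01 to 1.24) beside 8.10 (6.13 to 10.9) for Hlf and 5.75 (3.50 to 10.0) for Mecom.

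Lineage genes were arranged differently. Dntt was at 918 CPM (866 to 971) in phMPP4s, 203 CPM in phMPP3s, 160 CPM in phST-HSCs and 4.81 CPM (1 UMI) in phLT-HSCs. Flt3 went from 33.7 CPM in phLT-HSCs to 287 CPM in phMPP4s, and Il7r, the interleukin 7 receptor gene, from no UMI in phLT-HSCs to 99.7 CPM in phMPP4s. CD135, the protein of Flt3, is part of the gates, so the Flt3 difference is no independent measure. Mpo was at 91.5 CPM (55.1 to 143) in phLT-HSCs, 244 CPM in phST-HSCs, 467 CPM in phMPP4s, 1093 and 1104 CPM in phMPP2s and phMPP3s and 1612 CPM in Sca-1- cells. The mast cell protease gene Cpa3 was at 180 CPM in Sca-1- cells, 153 CPM (99.8 to 224) in phMPP2s, 90.2 CPM in phMPP3s and 6.93 CPM in phST-HSCs.

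**Figure D3:**
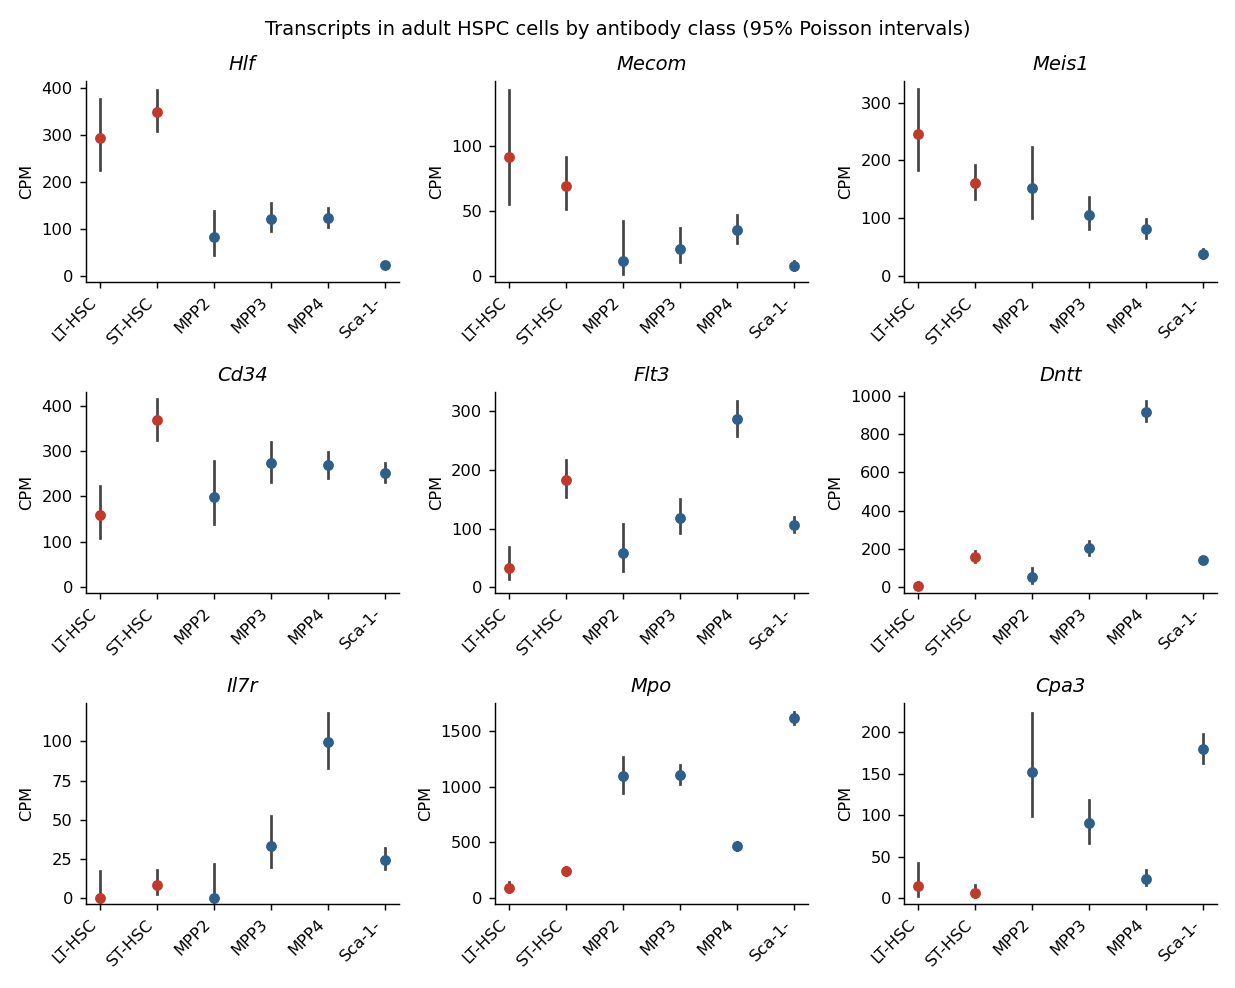
CPM (vertical axes) of 9 genes in the HSPC cells of each antibody class (horizontal axes: 29 phLT-HSCs, 127 phST-HSCs, 14 phMPP2s, 66 phMPP3s, 150 phMPP4s and 237 Sca-1- cells). Points are summed UMIs and lines exact 95% Poisson intervals; red marks the 2 HSC classes. Hlf, Mecom and Meis1 are high on the left, Flt3, Dntt and Il7r peak in phMPP4s, and Mpo is highest in Sca-1- cells at 1612 CPM.

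By the ratio to the remaining HSPC cells, the leading genes were Car2, Apoe, Meis1, Jund and Ctla2a in phLT-HSCs, and Ltb, Hlf, Hbb-bt, Car2 and Txnip in phST-HSCs. Car2, a carbonic anhydrase gene also used by erythroid cells, was at 727 CPM in phLT-HSCs and 393 CPM in phST-HSCs. Those of phMPP4s were Prg2, Dntt, Ebf1, Ly6d and Il12a, and those of Sca-1- cells Cpa3, Ctsg, Lgals1, Mpo and Ms4a3. Ebf1 was found in 54 of the 629 HSPC cells, 5 of which held 95 of its 297 UMIs. Prg2, an eosinophil granule gene, came mostly from 1 cell, which held 226 of its 289 UMIs in the whole cluster. The 5 leading genes of phMPP3s (Cd63, Igf1r, Mcm2, Nkg7 and Ctla2a) had ratios of at most 1.64.

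Over all genes with at least 50 UMIs in HSPC cells, 288 of 7711 (3.73%) were at least 2-fold higher in Sca-1+ than in Sca-1- HSPC cells and 67 (0.869%) at least 2-fold lower. Of 15 tested myeloid progenitor genes, 10 were at least 2-fold lower and none higher. Markers of mature myeloid cells split, with 6 of 8 monocyte markers at least 2-fold lower, but 4 of 8 neutrophil markers higher and 1 lower. Of 14 tested lymphoid priming genes, 7 were at least 2-fold higher, as were 6 of 27 stem cell transcription factors and 7 of 12 genes of the HSC list used for the hscScore. The median log2 ratio was -1.20 for the myeloid list, 0.97 for the lymphoid list and 1.34 for the HSC list, beside 0.04 over all tested genes. The paper names Ly6a, which encodes Sca-1, among the genes behind the rise of the hscScore, and Sca-1 set this split. In the whole cluster against the other adult cells the HSC list split. Of 21 tested genes 8 were at least 2-fold higher and 6 lower, with a median log2 ratio of 0.23.

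Depth differed between the classes, with a median of 5630 UMIs in phST-HSCs and 9243 in Sca-1- cells. The cells were therefore divided by UMIs into 3 groups of near equal size, and Hlf was higher and Mpo lower in Sca-1+ than in Sca-1- cells in each, while Cd34 went from 353 against 393 CPM in the shallowest to 247 against 223 CPM in the deepest. In the shallowest group, Hlf was at 363 CPM (317 to 415) in Sca-1+ and 16.0 CPM (4.37 to 41.1) in Sca-1- cells, and in the deepest at 83.0 CPM (68.5 to 99.6) and 21.1 CPM (14.6 to 29.5). Mpo was at 238 against 2129 CPM in the shallowest group and at 903 against 1662 CPM in the deepest.

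When the HSPC cells were ordered by Sca-1 antibody level and cut into 5 groups of near equal size, Hlf was at 25.5, 25.1, 86.2, 131 and 379 CPM from group 1 (lowest Sca-1) to group 5. Cells of equal level fell on both sides of the cuts between groups 1 and 2, 2 and 3, and 4 and 5. These neighbouring groups are thus not strictly apart in level. Mpo was highest in group 1 at 1799 CPM, lowest in group 4 at 398 CPM, and at 535 CPM in group 5. Dntt was highest in group 4, at 677 CPM (628 to 729).

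**Figure D4:**
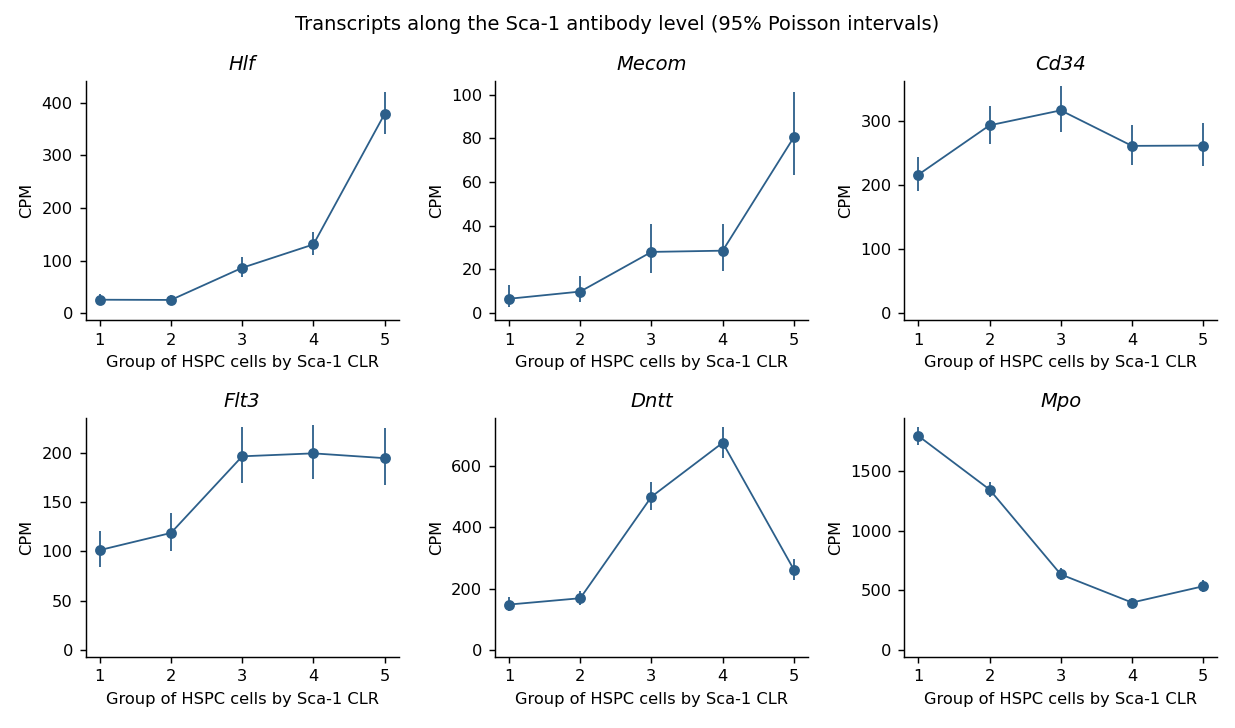
CPM (vertical axes) of 6 genes in 5 groups of the HSPC cells ordered by Sca-1 antibody level (horizontal axes, 1 lowest, 5 highest). Points are summed UMIs with exact 95% Poisson intervals. Some neighbouring groups share cells of equal level at their border. Hlf and Mecom are highest in group 5 (379 CPM for Hlf), Dntt peaks in group 4, Mpo is highest in group 1 at 1799 CPM, and Cd34 stays between 216 and 317 CPM.

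The classes also differed in cell cycle and score. The G2M list made up 0.0241% of thinned UMIs in phLT-HSCs, 0.0496% in phST-HSCs, 0.134% in phMPP4s and 0.123% in Sca-1- cells. Deposited G1 calls covered 48.3% of phLT-HSCs, 64.6% of phST-HSCs and 13.5% of Sca-1- cells. The mean hscScore was 0.202 (SD 0.131) in phLT-HSCs, 0.195 (SD 0.119) in phST-HSCs, 0.106 (SD 0.0893) in phMPP4s and 0.0581 (SD 0.0559) in Sca-1- cells, classes that differ in depth. Between 4096 and 8192 UMIs the means were 0.236, 0.206, 0.149 and 0.073 in that order, over 16, 79, 61 and 72 cells. Between 8192 and 16384 UMIs they were 0.107, 0.0528, 0.0616 and 0.0473, so that phST-HSCs no longer stood above phMPP4s. Free RNA, which reaches all cells of a droplet library, enters such calls, and its part in them was not tested.

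Clustering the 629 cells by themselves gave 5 sub-clusters, which are given by number since no name was fixed for them. Their genes describe them, and the antibodies, which took no part in the clustering, were compared across them. Sub-cluster 1 (192 cells) was led by Hbb-bt, Hlf, Ltb, Car2 and Ifitm1. It was Sca-1+ in 88.0% (82.6 to 92.3%) and held 28 of the 29 phLT-HSCs and 85 of the 127 phST-HSCs. Sub-cluster 2 (175 cells) was led by Ebf1, Il7r, Dntt, Cox6a2 and Vpreb3, the last found in 54 HSPC cells. It was CD135+ in 71.4% (64.1 to 78.0%), held no phLT-HSC and contained 86 of the 150 phMPP4s.

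Sub-cluster 4 (94 cells), led by the granule genes Ms4a3, Cpa3, Elane and Ctsg with Ap3s1, was Sca-1- in 87.2% (78.8 to 93.2%) and held no phMPP4. Sub-cluster 5 (68 cells), led by the mitotic genes Plk1, Ube2c, Hmmr, Aspm and Ckap2l, had 91.2% of its cells in G2M by the deposited phases and was Sca-1+ in 48.5%. Sub-cluster 3 (100 cells) had no clear program: apart from Prg2 its leading genes had ratios of at most 2.28, its median of 4666 UMIs was the lowest of the 5, and its mitochondrial share of 5.36% the highest. It was Sca-1+ in 62.0% (51.7 to 71.5%).

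Single HSPC cells were compared by the lineage genes they held. With cells thinned to 2000 UMIs (606 kept and 23 left out), a cell was counted for a lineage list when it had at least 2 UMIs of it. Lymphoid priming genes were counted in 46.7% (42.7 to 50.8%) of HSPC cells, beside 31.8% of all other adult cells. The share was higher in the B lineage clusters (99.3% in Pre/Pro-B1 and 100% in Pre/Pro-B2) and in Mono6 (67.1%, 59.03 to 74.5%). It was 54.8% (43.5 to 65.7%) in T/NK, 3.99% in the MegP2 cluster, whose median was 7981 UMIs, and 1.49% in the EryP2 cluster (median 27905.5 UMIs). Within the cluster the share was 80.0% (72.6 to 86.2%) in phMPP4s and 13.8% (3.89 to 31.7%) in phLT-HSCs. Flt3 is on this list and encodes CD135, which the gates require on phMPP4s and exclude on phLT-HSCs. The difference between these classes is thus partly set by the gates. Megakaryocyte and erythroid priming genes were counted in 32.2% (28.5 to 36.1%) of HSPC cells in 9.78% of MyP5 cells (median 16646.5 UMIs), in 19.6% of Pre/Pro-B2 cells (median 2159.5 UMIs) and in 32.9% of all other adult cells. Among the classes phLT-HSCs had the highest share, 86.2% (68.3 to 96.1%), against 22.1% (15.6 to 29.7%) in phMPP4s.

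Myeloid progenitor genes were counted in 84.8% of HSPC cells but also in 74.4% of Bcell3 and 58.4% of MegP2 cells and in 20.2% of EryP2 cells. Mast and basophil genes were counted in 4.46% of HSPC and 5.69% of other adult cells, in no phLT-HSC or phST-HSC and in 9.44% (6.01 to 13.9%) of Sca-1- cells. At least 2 of the myeloid, lymphoid, and megakaryocyte and erythroid lists were counted in 341 of 606 cells (56.3%, 52.2 to 60.3%). That share was 36.9% (35.4 to 38.4%) in all other adult cells together and 14.0% in MyP5. It was not particular to the cluster, since it was 58.1% in MegP2, 76.9% in Bcell3 and 79.0% in Pre/Pro-B2. Lymphoid together with megakaryocyte and erythroid genes were counted in 72 of 606 cells (11.9%, 9.41 to 14.7%), 59 of them with myeloid genes as well. They were counted in 4.90% (4.24 to 5.62%) of all other adult cells, 3.24% of MegP2 and 13.2% (10.1 to 16.9%) of Pre/Pro-B1 cells.

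The adult HSPC cluster was last set beside the HSPC clusters of the other HP libraries. These held 24.2% of P0 cells (1505), 11.2% of E18.5 cells (388), and 5.89% (33) and 3.47% (165) of the cells of the E16.5 libraries. Stage and library cannot be told apart in any comparison with the adult. The 2 E16.5 libraries show only how far libraries of that stage lay apart. The E16.5 clusters carried 7104 and 2397 CPM of Cd74, a gene of antigen presentation, beside 11.9 CPM in the adult, and their Hlf was at 19.2 and 21.2 CPM and Mecom at 0 and 1.87 CPM. These values go against the name, and Adgrl4 was likewise low, at 24.0 and 13.4 CPM beside 189 CPM in the adult. Other genes lay nearer to the adult, with Cd34 at 189 and 185 CPM beside 269 CPM and Hoxa7 at 28.8 and 42.1 CPM beside 41.7 CPM. The genes thus went both ways and the name was not settled here. The E16.5 cells are given below by their code only and not as HSPCs of that stage. Of the 33 cells of the first E16.5 library, 20 shared a barcode with another library.

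Hlf was at 115 CPM in the adult, 114 CPM at P0 and 157 CPM at E18.5, with an adult to P0 ratio of 1.01 (0.925 to 1.10). Mecom was at 27.7, 27.0 and 34.9 CPM, and Cd34 at 269, 309 and 310 CPM. Among all genes with at least 50 UMIs, 532 of 11225 (4.74%) were at least 2-fold higher in the adult than at P0 and 996 (8.87%) at least 2-fold lower, with a median log2 ratio of -0.19. Mitochondrial and ribosomal protein genes and Gm42418 took 47.9% of adult and 36.2% of P0 HSPC UMIs. Without them every log2 ratio rose by 0.29, the counts became 975 higher and 478 lower, the Cd34 ratio went from 0.869 to 1.06 and the Hlf ratio from 1.01 to 1.24.

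Among the gene lists, the lymphoid priming genes had the largest median difference from P0. Of 16 tested lymphoid priming genes, 11 were at least 2-fold higher in the adult and 1 lower, with a median log2 ratio of 2.46. Dntt gave 1831 UMIs (336 CPM) in adult HSPC cells, 2 UMIs (0.0638 CPM) in the larger P0 cluster, 38 UMIs (3.79 CPM) at E18.5 and none in either E16.5 library. Ly6d was at 94.1 CPM in the adult, where 56 of 629 cells held it and 5 of them held 236 of its 513 UMIs, and at 1.88 CPM at P0. Il7r was at 40.9 and 6.16 CPM, but it was at 46.6 CPM at E18.5 and Ly6d at 65.9 CPM in the first E16.5 library. Within the adult cluster several genes of the list were concentrated in sub-cluster 2. Dntt was at 923 CPM there and 121 CPM in the other HSPC cells, Il7r at 122 and 11.0 CPM, and Ebf1 at 167 and 13.3 CPM. How far the gap to P0 depends on where the cluster borders of each library lie was not tested. Beside E18.5 the list went both ways. Notch1, Ccr9, Ebf1 and Rag1 were at 110, 95.5, 84.3 and 20.05 CPM at E18.5 and at 64.2, 3.67, 54.5 and 8.62 CPM in the adult. Ly6d, Vpreb1 and Igll1 were at 20.1, 3.19 and 1.40 CPM at E18.5 and at 94.1, 22.4 and 10.1 CPM in the adult. The class I gene H2-Q7 was at 81.5 CPM in the adult and at most 2.40 CPM in the HSPC-coded cells of the other libraries.

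Genes of the fetal program were low in the adult. Of 12 tested, 10 were at least 2-fold lower than at P0 and none higher (9 lower under the scaling above). Hmga2, a chromatin gene active in fetal HSCs, was at 38.0 CPM (33.0 to 43.5) in the adult, 263 CPM at P0, 356 CPM at E18.5, and 225 and 176 CPM at E16.5. Lin28b, an RNA-binding regulator of fetal blood formation, gave no UMI in the adult, which allows up to 0.551 CPM, and 19.5 CPM at P0. Hmga2 was even so 10.6-fold (8.65 to 12.9) higher in adult HSPC cells than in other adult cells.

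**Figure D5:**
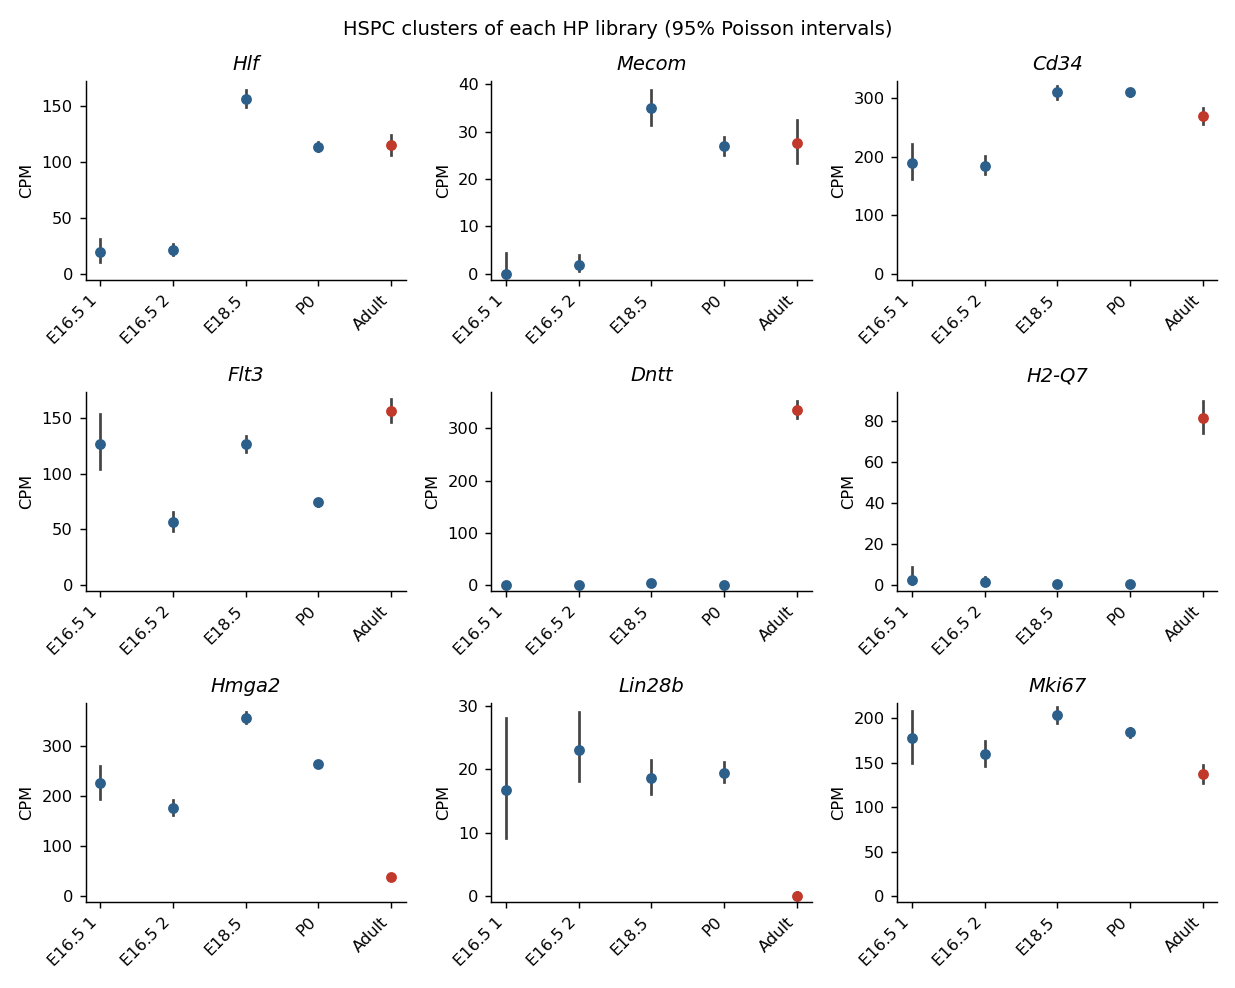
CPM (vertical axes) of 9 genes in the HSPC clusters of the 5 HP libraries (horizontal axes; red is the adult). Points are summed UMIs and lines exact 95% Poisson intervals. Dntt and H2-Q7 are high in the adult only among these libraries (336 and 81.5 CPM), Hmga2 and Lin28b are lowest there, and Hlf and Mecom are low in both E16.5 libraries, whose cells carry the HSPC code only.

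Some of the largest differences from P0 were also seen outside the HSPC cluster. Lars2 was at 3956 CPM in adult HSPC cells and 44.8 CPM at P0, and the neutrophil genes Camp and S100a9 at 228 and 566 CPM beside 7.56 and 88.0 CPM. In the other adult cells Lars2 was at 3219 CPM, Camp at 6586 CPM and S100a9 at 15135 CPM, beside 51.2, 208 and 1013 CPM in the other P0 cells. Dntt was at 59.6 CPM in the other adult and 0.895 CPM in the other P0 cells, H2-Q7 at 39.5 and 1.84 CPM, and Ly6d at 75.5 and 15.1 CPM. Isolation also differed by stage. By the methods, adult BM came from spines, pelvic bones, femurs and tibias, with lysis of red cells. Fetal BM came from the skeleton without the head and was not lysed, and lysis is not described for P0. The part of these steps, of free RNA and of library preparation in these differences was not tested. On the other side, Hbb-bt, Hmga2 and Mt1 were among the genes with the lowest adult to P0 ratios. Hmga2 was also lower in the other adult than in the other P0 cells, at 3.59 against 93.7 CPM. Hbb-bt, a beta globin gene, was at 39.1 CPM in adult and 315 CPM in P0 HSPC cells, but at 302 CPM in the other adult and 26.2 CPM in the other P0 cells.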

How the data were processed

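According to the methods, the authors sorted CD45+ Lineage- c-Kit+ cells from pooled adult BM, made 10X 3′ libraries, and counted reads with CellRanger 3.1.0 on mm10. The submitters' processing notes also name R 4.0 and Seurat 3.1.5. The authors deposited raw UMI counts for 20275 genes, antibody counts for 29 antibodies, of which 4 were used in the gates, and a cell table with the cluster code, the phase, the hscScore as a score, and the mitochondrial share as a fraction. Before clustering, the authors had dropped cells under 300 UMIs, cells with 7.5% or more mitochondrial UMIs and those past the 98th percentile for UMIs or genes, and had regressed cell cycle scores. From the cell table, 8 columns were not used.

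UMIs were summed over cells and scaled to CPM, and cells were thinned to 1000 or 2000 UMIs for shares. Genes were compared where the groups together held at least 50 UMIs. Because the adult HP library was the only one of its kind, cells were not treated as replicates and no test was run. The methods name CLR for the antibodies, but the direction, here across the cells of the library, and the level of 1 were choices made here, on which every positive share and class rests. The phMPP4 gate left out CD48, which the methods include. Sub-clusters used 2000 variable genes, 20 principal components, 15 neighbours and Leiden resolution 0.5 in scanpy 1.11.5 with leidenalg 0.10.2. Other steps ran in Python 3.11.15 (scipy 1.17.1, matplotlib 3.10.9, anndata 0.12.19, pandas 2.3.3, numpy 2.4.6). Gene positions were read from RefSeq on the mm10 build. Scrublet marked 2 of 5985 adult cells and none of the 629 HSPC cells, and since the authors had removed putative doublets, no cell was dropped. The functions were tested on simulated data.

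The cluster, the gene lists and the markers were chosen with earlier results of these data known. Genes are named where they are on those lists, among the 20 highest and 10 lowest ratios of the cluster at 100 CPM and 50 UMIs, among the 5 highest of a class or sub-cluster, or among the 8 at each end of the adult to P0 ratio. The members of the shallow clusters, Cd74 at E16.5 and the single cell that holds most Prg2 UMIs were looked at after their values were seen. Antibodies without counts in the adult library were not analysed here. Some genes that this rule names are not reported here.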

Additional observations from a re-analysis of the deposited data

Results flagged for a closer look

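The antibody against CD127, the interleukin 7 receptor, was outside the gates and was low throughout the adult library. It gave a count on 24 of 629 HSPC cells (3.82%, 2.46 to 5.62%) and on 0.840% (0.613 to 1.12%) of other adult cells. The other clusters were not alike. The share was 2.72% (1.41 to 4.70%) in Pre/Pro-B1, 2.31% (1.00 to 4.49%) in Bcell3 and 5.36% (1.12 to 14.9%) in Stroma, whose intervals overlap that of the HSPC cluster. EryP2 had no count (0 to 0.775%). In the HSPC cluster, 15 of the 24 cells lay in sub-cluster 1 and 3 in sub-cluster 2, which held most Il7r UMIs. None of the 89 HSPC cells with an Il7r UMI carried a count, which allows a share of up to 3.37% by the limit of 3 counts (exact interval 0 to 4.06%), beside 24 of 540 cells (4.44%, 2.87 to 6.54%) without one, so the intervals overlap. No HSPC cell had more than 2 counts. Of the other antibodies outside the gates, CD73 gave a count on 2.07% of HSPC and 4.07% of other adult cells, CD31 on 0.795% and 1.87%, and CD140a on 0.954% and 1.38%, while CD105 gave 1 count in all and the rest none. The CD127 share was thus above that of CD73 on HSPC cells and below it on the other cells. Whether any of these counts stand for bound antibody was not tested.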

How the results depend on the processing

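One adult library without a replicate limits every result, and intervals cover counting error only. No paired analysis was possible because the values come from no test and the adult has 1 library. Of 167 recomputed values, 112 stayed within the interval, SD or 1.5 times of the reported value, 53 moved and 2 turned direction. Some of the 112 could not have moved. Scrublet marked no HSPC cell, so leaving out marked cells repeats every value that rests on HSPC cells alone. For the hscScore the tolerance was the SD over cells, 0.102, beside a difference of 0.00913, so that difference could not be counted as turned. The cause of the moves was not tested, except where the setting itself fixes it (less thinning, another level, a smaller denominator). The values that turned were the CD48 mean difference, 0.20 by CLR and -0.33 on the log2 scale per 10000, and the Cd34 ratio of adult to P0, 0.869 as reported and 1.06 without mitochondrial, ribosomal protein and Gm42418 UMIs. The balance of genes at least 2-fold apart also turned without those UMIs, which these labels do not show. Of such genes, the share higher in HSPC than in other adult cells went from 46.4% to 61.8%. The share higher in the adult than at P0 went from 34.8% to 67.1%.

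The HSPC share was 12.6% among cells of at least 1000 UMIs, 11.9% without cells whose barcode another library held (an alternative added after the data were seen), and 8.81% when clusters were computed again and named by at least 3 HSPC markers. Of the 527 cells so named, 449 (85.2%) were HSPC cells, 71.4% of the cluster. The ratio of HSPC to other cells was 17.2 for Hlf and 18.5 for Mecom by the mean of per-cell CPM, and 14.2 for Hlf and 6.04 for Cd34 without mitochondrial, ribosomal protein and Gm42418 UMIs. Shares of cells with a UMI at 2000 UMIs were 18.6% (Hlf), 6.27% (Mecom) and 44.6% (Cd34), and without thinning 40.1%, 18.8% and 80.6%. The hscScore difference between HSPC and other cells, 0.00913 from the means given, was 0.0336 among cells of at least 1000 UMIs, 0.0322 by medians and 0.0397 within ranges of UMIs. Without thinning, S and G2M lists made up 0.189% and 0.130% of UMIs.

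At a CLR of 0.75 the positive shares were 69.6% (Sca-1), 49.8% (CD135), 76.2% (CD48) and 16.2% (CD150), and at 1.5 they were 48.3%, 16.4% and 10.0% for the first 3. With CLR across all HP libraries CD48 was at 80.4%. The classes at 0.75 and 1.5 were 10.0% and 31.6% (phST-HSC), 5.41% and 0.954% (phMPP2), 13.7% and 1.11% (phMPP3), and 31.8% and 10.0% (phMPP4). With CD48+ required, an alternative added after the data were seen, phMPP4s were 14.0%. With CLR across all HP libraries they were 3.02% (phLT-HSC), 11.0% (phST-HSC), 3.82% (phMPP2) and 19.1% (phMPP3). The Sca-1+ to Sca-1- ratio, added later, stayed between 6.21 and 7.82 for Hlf under these settings.

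The lineage shares at 1000 UMIs were 58.2% (myeloid), 29.1% (lymphoid), 14.2% (megakaryocyte and erythroid) and 2.88% (mast). With at least 1 UMI they were 96.0%, 68.8%, 60.1% and 12.9%, and with at least 3 UMIs 69.0%, 33.2% and 16.7% for the first 3. Adult to P0 ratios without mitochondrial, ribosomal protein and Gm42418 UMIs were 1.24 (Hlf), 1.26 (Mecom) and 0.177 (Hmga2). Without the P0 cluster of code HSPC4 they were 0.897 (Hlf) and 0.813 (Cd34), and without that of code HSPC3, added after the data were seen, 1.003 and 0.911. Cd34 was at 0.939 by the mean of per-cell CPM.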
